A study of Homo sapiens with 8 samples.

Results

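The 37 RNAs encoded by the mitochondrial genome were followed across 4 groups of WSU-DLCL2, a human cell line established from a diffuse large B-cell lymphoma. They are 13 mRNAs, 2 rRNAs and 22 tRNAs, and were taken by gene symbol from the 60592 rows of each deposited table. No threshold on their values was used, but the set was chosen with earlier results of these data known. Of the 37, 28 are transcribed from the heavy-strand promoters and 9 from the light-strand promoter: MT-ND6 and the tRNAs MT-TQ, MT-TA, MT-TN, MT-TC, MT-TY, MT-TS1, MT-TE and MT-TP. All 28 lie on the plus strand and all 9 on the minus strand of the reference (GRCh38, GENCODE release 29).

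Control cells, whose genotype is labelled WT, and cells labelled FDX1-OE, for overexpression of ferredoxin 1, received elesclomol (ES), a drug that brings copper into the cell, at 15 nM or the solvent DMSO for 48 h. Cell type and treatment give 4 groups of 2 libraries, 8 in all, each named by its cell type followed by its treatment (FDX1-OE ES, for example). How FDX1 was overexpressed, whether the FDX1-OE cells are 1 clone, and whether the replicates were separate cultures are not given in the sources used here, so p-values measure only the spread between these libraries, which may be technical. Values are FPKM, the authors' fragments per length of the gene model and size of the library. The number of reads behind a value is unknown.

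Mitochondrial DNA is transcribed from both strands into long precursors. In the precursors tRNAs lie between most of the longer RNAs, and cutting at the tRNA ends by the mitochondrial RNase P and by ELAC2 frees the mRNAs, rRNAs and tRNAs. The mRNAs encode membrane subunits of respiratory complexes I, III, IV and V, and all but MT-ND6 carry poly(A) tails. The light strand encodes that single mRNA and some tRNAs, and most of its transcript is normally degraded.

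The results turn on 9 tRNA genes, which are printed here: 6 whose values rose with ES in FDX1-OE cells, and 3 light-strand tRNAs whose values fell. Of these 3, MT-TC and MT-TY lie between MT-ND2 and MT-CO1, as do MT-TA and MT-TN of the first 6, and MT-TS1 lies past MT-CO1. The sequences are those of the genes from 5′ to 3′ in the sense of the RNA (GENCODE release 29, GRCh38), and capitals mark the anticodon.
MT-TM (chrM:4402-4469, plus strand): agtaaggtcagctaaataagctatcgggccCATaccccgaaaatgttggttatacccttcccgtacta
MT-TQ (chrM:4329-4400, minus strand): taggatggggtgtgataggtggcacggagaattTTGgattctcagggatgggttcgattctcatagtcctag
MT-TA (chrM:5587-5655, minus strand): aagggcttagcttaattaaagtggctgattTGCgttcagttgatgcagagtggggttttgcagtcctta
MT-TN (chrM:5657-5729, minus strand): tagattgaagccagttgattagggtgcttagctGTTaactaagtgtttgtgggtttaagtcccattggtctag
MT-TK (chrM:8295-8364, plus strand): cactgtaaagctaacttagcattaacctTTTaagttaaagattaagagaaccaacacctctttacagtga
MT-TR (chrM:10405-10469, plus strand): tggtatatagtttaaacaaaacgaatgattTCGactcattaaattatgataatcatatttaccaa
MT-TC (chrM:5761-5826, minus strand): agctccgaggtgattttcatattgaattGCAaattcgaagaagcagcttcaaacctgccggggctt
MT-TY (chrM:5826-5891, minus strand): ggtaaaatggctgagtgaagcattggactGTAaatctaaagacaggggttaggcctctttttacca
MT-TS1 (chrM:7446-7514, minus strand): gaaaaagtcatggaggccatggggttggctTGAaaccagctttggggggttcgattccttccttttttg
MT-TM decodes methionine, MT-TQ glutamine, MT-TA alanine, MT-TN asparagine, MT-TK lysine, MT-TR arginine, MT-TC cysteine, MT-TY tyrosine and MT-TS1 serine. Each is a whole tRNA gene between 65 and 73 bases long, without an intron. Gene models this short carry 2 limits. FPKM divides by that length, and a fragment over a tRNA gene may come from a precursor or from the cut tRNA, which cannot be told apart here. The strand setting of the counting is not given in the sources used here, so reads of the other strand over the same bases cannot be told apart either.

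FDX1 was at 10.8 and 10.4 FPKM in control DMSO, 59.8 and 56.0 in FDX1-OE DMSO, 9.88 and 10.0 in control ES and 60.7 and 59.4 in FDX1-OE ES, which matches the labels in every library. FPKM summed to 408018 and 403024 in the FDX1-OE ES libraries and to between 445716 and 451027 in the others. Rows at 1 FPKM or more numbered 11868 and 12047 in FDX1-OE ES and 10815 to 11320 in the others. The main test used the values without rescaling. Of 9 B-cell markers 8 reached 1 FPKM, with a sum of 1376 to 1519, and 1 was at 0 throughout. Of 8 T and NK cell markers only TRAC did (70.1 to 85.5 FPKM, with 4 markers at 0), of 7 myeloid markers only AIF1 (sum of the list 1.62 to 4.63 FPKM, with 3 at 0), and of 7 epithelial and fibroblast markers none. AIF1 was at 1.50 to 2.30 FPKM in the DMSO libraries and 2.88 to 4.33 in the ES libraries, and its part in the results was not tested. The FDX1-OE ES libraries stand apart in spread as well: between them the median absolute log2 difference over the 37 RNAs was 0.32, against 0.10 in control DMSO, 0.05 in FDX1-OE DMSO and 0.11 in control ES. In 31 of 37 RNAs replicate 1 was the higher of the FDX1-OE ES pair.

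In control DMSO cells the 37 RNAs held 19.99% and 19.8% of all FPKM. Among mRNAs the highest mean level was that of MT-CO2 (13312 FPKM), a subunit of cytochrome c oxidase (complex IV), and the lowest that of the light-strand MT-ND6 (525 FPKM), a subunit of complex I, a ratio of 25.3. MT-RNR2, the large rRNA, was at 5409 ± 560 FPKM (SD, n = 2) and MT-RNR1, the small rRNA, at 1798 ± 531, both below the median mRNA (6213 FPKM). How RNA was selected for the libraries is not stated here. Its part in the levels of the rRNAs and of the untailed MT-ND6 against the other mRNAs was not tested. tRNA rows ran from 2.45 FPKM for MT-TL2 to 750 for MT-TS1, a ratio of 307. All 37 RNAs were above 1 FPKM in every library, with a lowest value of 1.30, so all 37 entered the test among 12063 genes. A gene is called here when its Benjamini-Hochberg adjusted p over all tested genes was below 0.05 in limma, and fold changes are on the log2(FPKM + 1) scale.

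**Figure D1:**
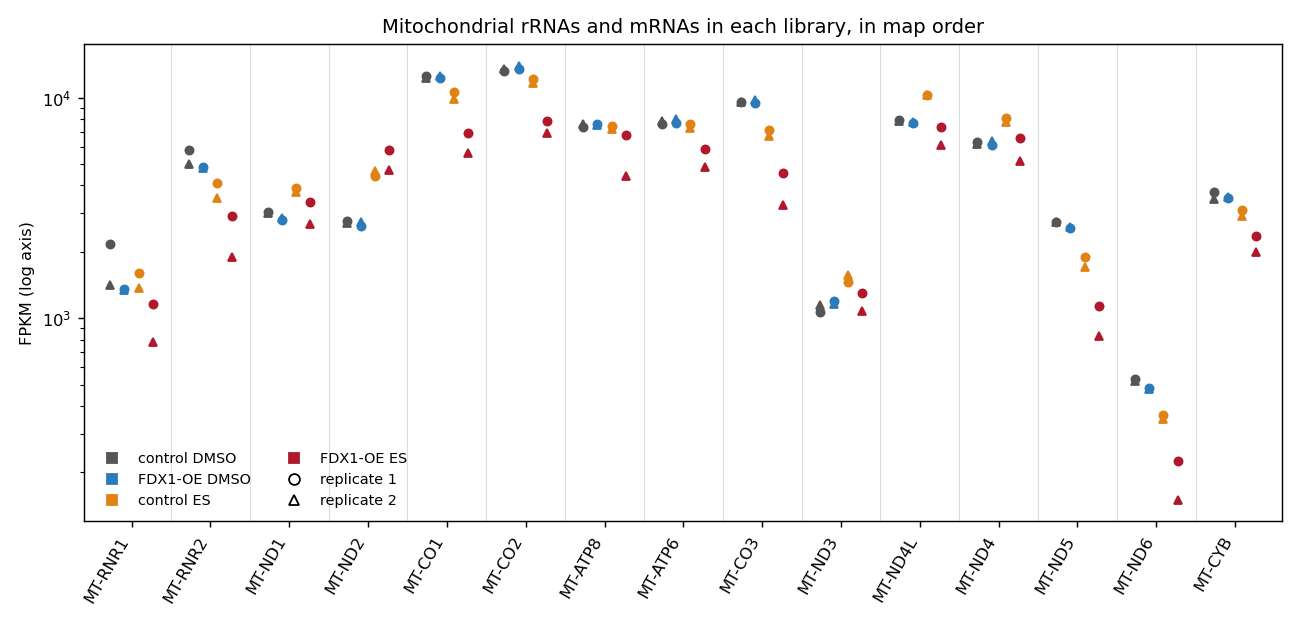
FPKM (log axis) of the 2 rRNAs and 13 mRNAs in each of the 8 libraries, in map order; colours are the 4 groups and symbols the replicates. MT-ND2 is higher in the 4 ES libraries than in the 4 DMSO libraries, while MT-ND5 and MT-ND6 are lower in the 4 ES libraries.

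FDX1 overexpression alone left the mitochondrial RNAs without a called change. In DMSO 0 of 37 were called between FDX1-OE and control cells by limma, where 1 of 12063 genes was (0.00829%, FDX1 itself, the same share higher and 0% lower). At an unadjusted p below 0.05 there were 5 of 37 RNAs (MT-TI, MT-TW, MT-TA and MT-TE lower, MT-TS2 higher) and 420 of all genes. None of the 5 passed the adjustment. MT-TW, for tryptophan, was at 11.1 and 8.42 FPKM in control and 7.93 and 6.87 in FDX1-OE cells. MT-TE, for glutamate, was at 122 and 117 against 99.8 and 102 FPKM. Weighting the libraries by their spread called 4 genes and 0 of the 37. The median log2 difference of the 37 was -0.04, against 0.00 over all genes.

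With ES the 37 RNAs changed in both directions. In FDX1-OE cells 12 rose and 19 fell, beside 60.8% of all genes called, 47.1% higher and 13.7% lower, and their median log2 change was -0.51 against 0.25 over all genes. The split of the 37 was 12 and 24 with median-ratio scaling and 16 and 15 with quantile normalisation. In control cells 9 rose and 3 fell, beside 7.74% of all genes called, 6.74% higher and 1.00% lower, with a median of 0.01 against 0.09. With median-ratio scaling 6 rose and 6 fell there. With the libraries weighted by their spread 13 rose and 10 fell there (2062 and 461 of all genes). The fit shares 1 spread over the 4 groups, so the wider spread of the FDX1-OE ES pair also enters the calls in control cells. On the main scale the 9 that rose in control cells were MT-ND2, MT-ND3, MT-ND4L, MT-TI, MT-TQ, MT-TM, MT-TA, MT-TK and MT-TR, and the 3 that fell were MT-ND5, MT-TD and MT-TE. Together the 37 RNAs held 19.7% and 18.9% of FPKM in control ES and 16.7% and 13.3% in FDX1-OE ES. In bulk libraries fewer cells holding an RNA and less of it in each cell cannot be told apart. The median log2 change of all genes in FDX1-OE cells moved from 0.25 to 0.00 with median-ratio scaling, which turned the split of all calls from 5682 higher and 1652 lower to 3069 and 3287, and in control cells from 813 and 121 to 436 and 394.

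**Figure D2:**
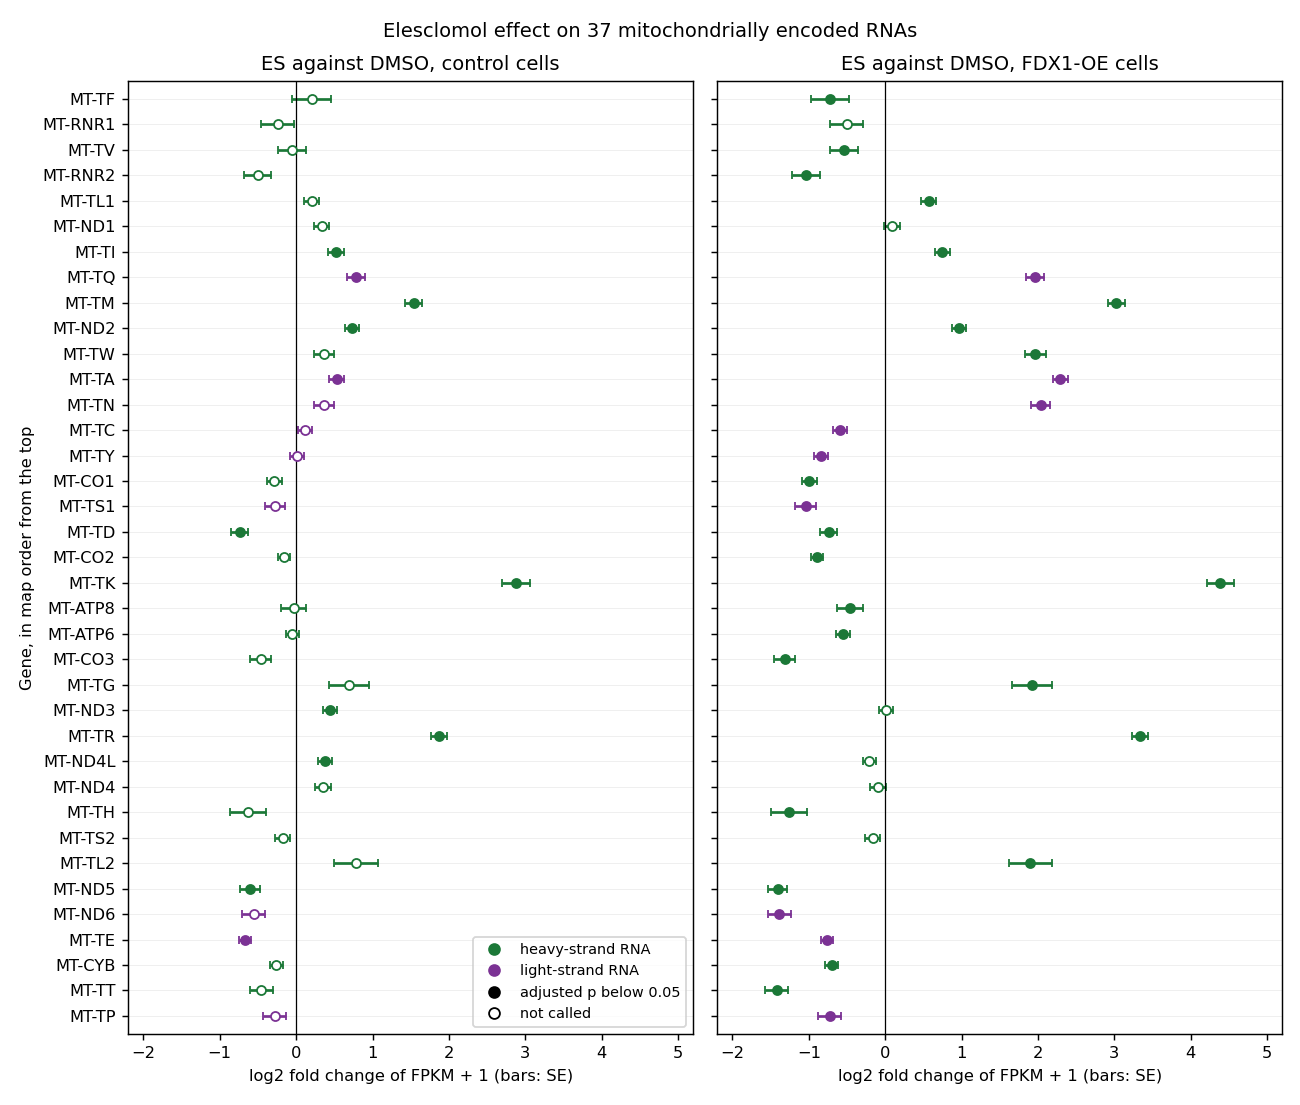
Log2 fold change of FPKM + 1 with ES against DMSO (points, with bars of 1 SE) for the 37 RNAs in map order, in control cells on the left and FDX1-OE cells on the right; filled points were called, and colour gives the strand. MT-TK, at 2.88 and 4.39, lies farthest to the right in both panels, and RNAs of both strands lie on both sides of 0 in FDX1-OE cells.

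Among the complex I mRNAs of the heavy strand, MT-ND2 rose with ES in both cell types. It was at 2752 and 2701 FPKM in control DMSO, 2632 and 2719 in FDX1-OE DMSO, 4404 and 4652 in control ES and 5772 and 4718 in FDX1-OE ES. All 4 ES libraries lay above all 4 DMSO libraries, and the change was called in control cells (log2 0.73, SE 0.09, adjusted p = 0.00753) and in FDX1-OE cells (log2 0.96, SE 0.09, adjusted p = 9.81e-05). MT-ND1, the mRNA before it on the map, was at 3038 and 3012 FPKM in control DMSO, 2785 and 2861 in FDX1-OE DMSO, 3877 and 3746 in control ES and 3375 and 2671 in FDX1-OE ES. Its control ES libraries lay above DMSO, and its FDX1-OE ES libraries spanned the DMSO values; neither change was called (log2 0.33, SE 0.10, adjusted p = 0.0795 in control and log2 0.09, SE 0.10, adjusted p = 0.462 in FDX1-OE cells), though MT-ND1 was called higher in FDX1-OE cells with quantile normalisation (0.50). The ratio of MT-ND2 to MT-ND1 was 0.906 and 0.897 in control DMSO, 0.945 and 0.950 in FDX1-OE DMSO, 1.14 and 1.24 in control ES and 1.71 and 1.77 in FDX1-OE ES. Both ES groups lay above both DMSO groups in it.

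MT-ND3, MT-ND4L and MT-ND4, neighbours farther along the heavy strand, also encode complex I subunits. In control cells the ES libraries of each lay above its DMSO libraries. In FDX1-OE cells none of them was called on the main scale. There the ES libraries of MT-ND4L lay below its DMSO libraries, and those of MT-ND3 and MT-ND4 spanned theirs. MT-ND4L was at 7907 and 7884 FPKM in control DMSO, 7692 and 7782 in FDX1-OE DMSO, 10244 and 10276 in control ES and 7392 and 6075 in FDX1-OE ES. It rose in control cells (log2 0.38, SE 0.09, adjusted p = 0.0433) and not in FDX1-OE cells (log2 -0.21, SE 0.09, adjusted p = 0.0767), and the difference between these effects was called (log2 -0.59, SE 0.13, adjusted p = 0.0199). MT-ND4, which shares 7 bases and a bicistronic mRNA with MT-ND4L, was at 6281 and 6145 FPKM in control DMSO, 6084 and 6377 in FDX1-OE DMSO, 8103 and 7741 in control ES and 6576 and 5178 in FDX1-OE ES, and neither effect was called on the main scale. With quantile normalisation MT-ND4 was called higher in control cells (0.28). MT-ND3 rose in control cells (log2 0.44, SE 0.09, adjusted p = 0.0305) from 1072.5 and 1151 to 1454 and 1568 FPKM. In FDX1-OE cells it was at 1194 and 1161 FPKM in DMSO and 1304 and 1081 in ES (log2 0.01, SE 0.09, adjusted p = 0.915), a change that was called at -0.28 (adjusted p = 0.0311) with median-ratio scaling and at 0.34 (adjusted p = 0.00771) with quantile normalisation. MT-ND4L was likewise called lower with the first (-0.50) and higher with the second (0.50), and so was MT-ND4 (-0.38 and 0.25). In control cells the call of MT-ND3 was lost with median-ratio scaling and with equal heavy-strand mRNA sums. That of MT-ND4L was lost with each of these, with equal nuclear totals (limma adjusted p = 0.053) and with quantile normalisation (0.0526).

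MT-ND5, the last complex I mRNA of the heavy strand, fell in both cell types. It was at 2738 and 2728 FPKM in control DMSO, 2577 and 2596 in FDX1-OE DMSO, 1889 and 1703 in control ES and 1141 and 829 in FDX1-OE ES. In that order from high to low, the 4 groups did not overlap. It fell with ES in control cells (log2 -0.61, SE 0.13, adjusted p = 0.0326) and in FDX1-OE cells (log2 -1.41, SE 0.13, adjusted p = 8.09e-05), and the call in control cells was lost with quantile normalisation and, at -0.59 (adjusted p = 0.0501), with equal heavy-strand mRNA sums. MT-ND2 and MT-ND5, both complex I mRNAs of the heavy strand, thus moved in opposite directions in the same libraries.

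The 3 cytochrome c oxidase mRNAs fell in FDX1-OE cells. In control cells none of them was called on the main scale, though for each both ES libraries lay below both DMSO libraries. MT-CO1, the catalytic subunit, was at 12577 and 12294 FPKM in control DMSO, 12350.2 and 12587 in FDX1-OE DMSO, 10604 and 9823 in control ES and 6938 and 5643 in FDX1-OE ES. All ES libraries lay below all DMSO libraries, with the FDX1-OE ES pair lowest (log2 -0.28, SE 0.10, adjusted p = 0.11 in control and log2 -0.99, SE 0.10, adjusted p = 0.000111 in FDX1-OE cells). MT-CO3 was at 9550.1 and 9564 FPKM in control DMSO, 9445 and 9789 in FDX1-OE DMSO, 7174 and 6679.7 in control ES and 4553 and 3271 in FDX1-OE ES and showed the same order (log2 -0.47, SE 0.13, adjusted p = 0.0711 in control and log2 -1.32, SE 0.13, adjusted p = 0.000122 in FDX1-OE cells). MT-CO2, which carries the first copper site that accepts electrons from cytochrome c, was at 13161 and 13462 FPKM in control DMSO, 13449 and 13973 in FDX1-OE DMSO, 12174 and 11605 in control ES and 7871 and 6932 in FDX1-OE ES. Its log2 change was -0.16 (SE 0.08, limma adjusted p = 0.215) in control cells and -0.89 (SE 0.08, limma adjusted p = 6.45e-05) in FDX1-OE cells. For each of the 3 the effect of ES differed between the cell types, by -0.71 for MT-CO1, -0.73 for MT-CO2 and -0.85 for MT-CO3 on the log2 scale. With every library set to the same heavy-strand mRNA sum the differences of MT-CO1 (-0.19, adjusted p = 0.164) and MT-CO2 (-0.21, adjusted p = 0.154) lost their calls. With median-ratio scaling (-0.58) and quantile normalisation (-0.52) MT-CO3 was called in control cells too. With quantile normalisation MT-CO2, the highest of the mRNAs, had a log2 change of 0.00 and lost its call, since the top ranks are set equal, and the differences of MT-CO1 and MT-CO2 between cell types were lost as well.

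The ATP synthase mRNAs MT-ATP8 and MT-ATP6 overlap by 46 bases and share 1 bicistronic transcript. MT-ATP6 was at 7596 and 7823 FPKM in control DMSO, 7659 and 7995 in FDX1-OE DMSO, 7617 and 7294 in control ES and 5862 and 4861 in FDX1-OE ES, and fell in FDX1-OE cells (log2 -0.55, SE 0.09, adjusted p = 0.00112), a call lost without the filter on low values and with quantile normalisation. MT-ATP8 was at 7334 and 7626 FPKM in control DMSO, 7580.0 and 7526 in FDX1-OE DMSO, 7429 and 7191 in control ES and 6804 and 4416 in FDX1-OE ES, and its FDX1-OE ES libraries lay far apart (log2 -0.46, SE 0.16, adjusted p = 0.0384). The MT-ATP8 call was lost with equal nuclear totals, with quantile normalisation and without any 1 of the 6 libraries outside FDX1-OE ES. MT-CYB, the cytochrome b of complex III, was at 3741 and 3482 FPKM in control DMSO, 3499 and 3536 in FDX1-OE DMSO, 3097 and 2922 in control ES and 2350.4 and 1994 in FDX1-OE ES. It fell in FDX1-OE cells (log2 -0.70, SE 0.09, adjusted p = 0.000274) and was not called in control cells (log2 -0.26, SE 0.09, adjusted p = 0.0962), where it was called with median-ratio scaling (-0.38) and quantile normalisation (-0.43).

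Of the 12 heavy-strand mRNAs 1 rose and 7 fell in FDX1-OE cells, and 3 rose and 1 fell in control cells. Their summed FPKM was 77748 and 77873 in control DMSO, 76945 and 78903 in FDX1-OE DMSO, 78065 and 75200.2 in control ES and 59938 and 47671 in FDX1-OE ES. The sum in control ES thus lay within or just under the DMSO range while single mRNAs moved within it. MT-ND2 took 3.42% to 3.54% of the sum in the DMSO libraries, 5.64% and 6.19% in control ES and 9.63% and 9.90% in FDX1-OE ES. MT-CO1 took 15.8% to 16.2% in DMSO, 13.6% and 13.1% in control ES and 11.6% and 11.8% in FDX1-OE ES. MT-CO3 went from 12.3% to 12.4% in DMSO to 9.19% and 8.88% and then 7.60% and 6.86%. MT-ATP6 kept a share between 9.70% and 10.2% in all 8 libraries. For these 4 mRNAs the FDX1-OE ES replicates lay nearer each other in share than in level.

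**Figure D3:**
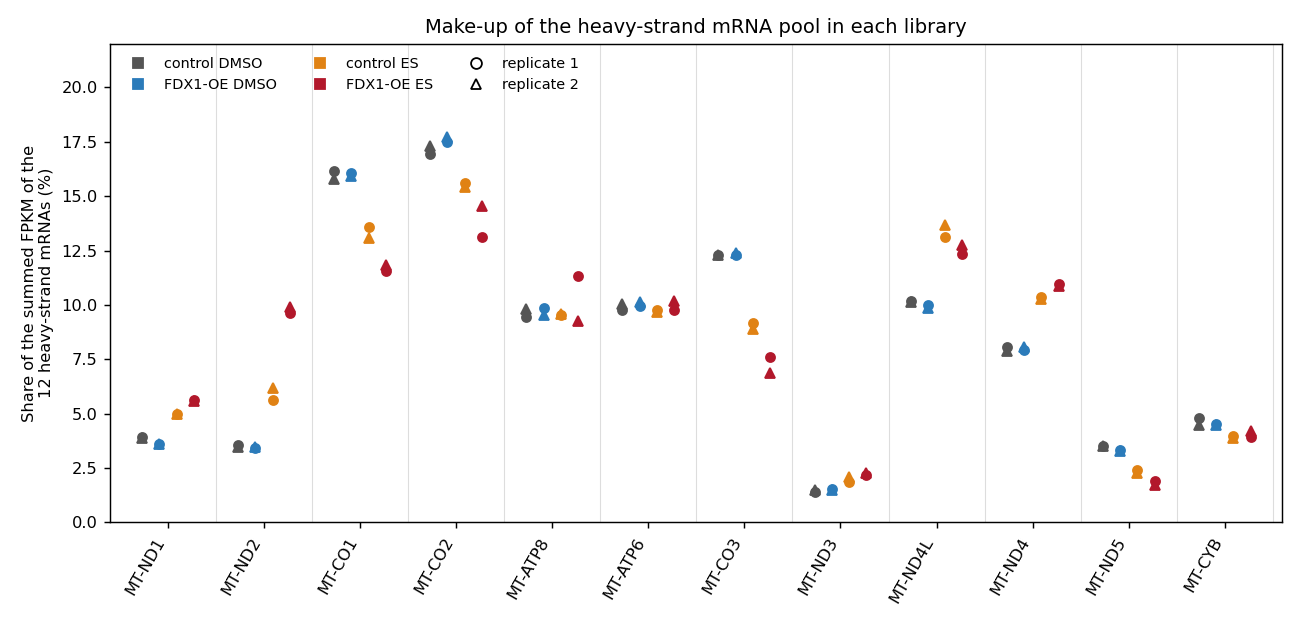
Share (%) of each of the 12 heavy-strand mRNAs in their summed FPKM, per library, in map order; colours are groups and symbols replicates. MT-ND2 climbs from between 3.42% and 3.54% in DMSO to 9.63% and 9.90% in FDX1-OE ES, MT-CO3 drops from 12.3% to 7.60% and 6.86%, and MT-ATP6 stays between 9.70% and 10.2%.

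When every library was set to the same heavy-strand mRNA sum, changes were tested relative to that sum. The heavy-strand mRNAs make up the sum themselves, so on this scale rises of some go with falls of others by construction. In FDX1-OE cells 16 of 37 RNAs were then higher and 10 lower, while 79.0% of all genes were called, 77.5% higher and 1.46% lower, with a median log2 change of 0.72 over all genes on this scale. MT-ND2 (1.51), MT-ND1 (0.63), MT-ND3 (0.56), MT-ND4 (0.45) and MT-ND4L (0.34) were higher in log2 terms. MT-ND5 (-0.87), MT-CO3 (-0.77), MT-CO1 (-0.45) and MT-CO2 (-0.35) were lower, and MT-ATP6 was at -0.01, MT-ATP8 at 0.08 and MT-CYB at -0.16 without a call. Among the tRNAs MT-TC (-0.05), MT-TD (-0.21), MT-TE (-0.23), MT-TF (-0.18) and MT-TP (-0.19) also lost their calls on this scale, and MT-TV turned to 0.0078 without one. In control cells 5 were higher and 0 lower by limma on this scale, beside 0.274% of all genes called, 0.240% higher and 0.0332% lower. They were MT-ND2 (0.75), MT-TQ (0.80), MT-TM (1.56), MT-TK (2.88) and MT-TR (1.88), and the calls of MT-ND3, MT-ND4L, MT-ND5, MT-TI, MT-TA, MT-TD and MT-TE in control cells were lost. At an unadjusted limma p below 0.05 there were 24 of 37 RNAs and 1607 of 12063 genes.

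The rRNAs lie first on the heavy strand. MT-RNR2 was at 5804 and 5013 FPKM in control DMSO, 4856 and 4794 in FDX1-OE DMSO, 4104 and 3523 in control ES and 2914 and 1895 in FDX1-OE ES. It fell in FDX1-OE cells (log2 -1.04, SE 0.18, adjusted p = 0.00142), with no overlap between ES and DMSO, and was not called in control cells (log2 -0.50, SE 0.18, adjusted p = 0.118). MT-RNR1 was at 2174 and 1422 FPKM in control DMSO, 1362 and 1337 in FDX1-OE DMSO, 1604 and 1376 in control ES and 1159.9 and 777 in FDX1-OE ES. It was not called in either cell type (log2 -0.24, SE 0.22, adjusted p = 0.505 in control and log2 -0.51, SE 0.22, adjusted p = 0.0759 in FDX1-OE cells, called at -0.80 with median-ratio scaling), and 1 control DMSO library was well above the other. The same library was the higher one for MT-TF and MT-TV, the tRNAs on either side of MT-RNR1. The ratio of summed rRNA to summed heavy-strand mRNA was 0.103 and 0.0826 in control DMSO, 0.0808 and 0.0777 in FDX1-OE DMSO, 0.0731 and 0.0651 in control ES and 0.0680 and 0.0560 in FDX1-OE ES. Each ES library was below each DMSO library. What part the selection of RNA for the libraries has in this ratio was not tested.

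On the light strand MT-ND6, its single mRNA, was at 531 and 519.7 FPKM in control DMSO, 483 and 479.7 in FDX1-OE DMSO, 366 and 349.7 in control ES and 224 and 150.4 in FDX1-OE ES. The 4 ES libraries lay below the 4 DMSO libraries, and the FDX1-OE ES pair below control ES. It fell in FDX1-OE cells (log2 -1.38, SE 0.15, adjusted p = 0.000161), was not called in control cells (log2 -0.55, SE 0.15, adjusted p = 0.0627), and the effects differed (log2 -0.83, SE 0.21, adjusted p = 0.0318). As a percent of the summed heavy-strand mRNAs MT-ND6 was 0.683 and 0.667 in control DMSO, 0.627 and 0.608 in FDX1-OE DMSO, 0.469 and 0.465 in control ES and 0.374 and 0.315 in FDX1-OE ES. On this measure the groups did not overlap. Set to equal heavy-strand mRNA sums, MT-ND6 was lower by ES in FDX1-OE cells (log2 -0.84), but the difference between its effects in the 2 cell types was -0.31 and no longer called (adjusted p = 0.108), nor was it with quantile normalisation (-0.64, adjusted p = 0.113). In control cells its fall was called with median-ratio scaling (-0.67).

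The fall of MT-ND6 ran alongside that of MT-ND5, which adjoins it with no base between them and lies on the other strand. The ratio of MT-ND6 to MT-ND5 was 0.194 and 0.190 in control DMSO, 0.187 and 0.185 in FDX1-OE DMSO, 0.194 and 0.205 in control ES and 0.197 and 0.181 in FDX1-OE ES. These ranges overlapped, with no order by treatment. Against MT-CYB, the next mRNA on the heavy strand, MT-ND6 was 0.142 and 0.149 in control DMSO, 0.138 and 0.136 in FDX1-OE DMSO, 0.118 and 0.120 in control ES and 0.0954 and 0.0754 in FDX1-OE ES. MT-ND6 was thus lower with ES against MT-CYB and against the sum, and showed no such order against MT-ND5. Unlike the mRNAs it is set against, MT-ND6 carries no poly(A) tail. What part the capture of untailed RNA has in these ratios was not tested. Without a known strand setting, reads of the 2 strands at the border of MT-ND5 and MT-ND6 cannot be told apart.

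**Figure D4:**
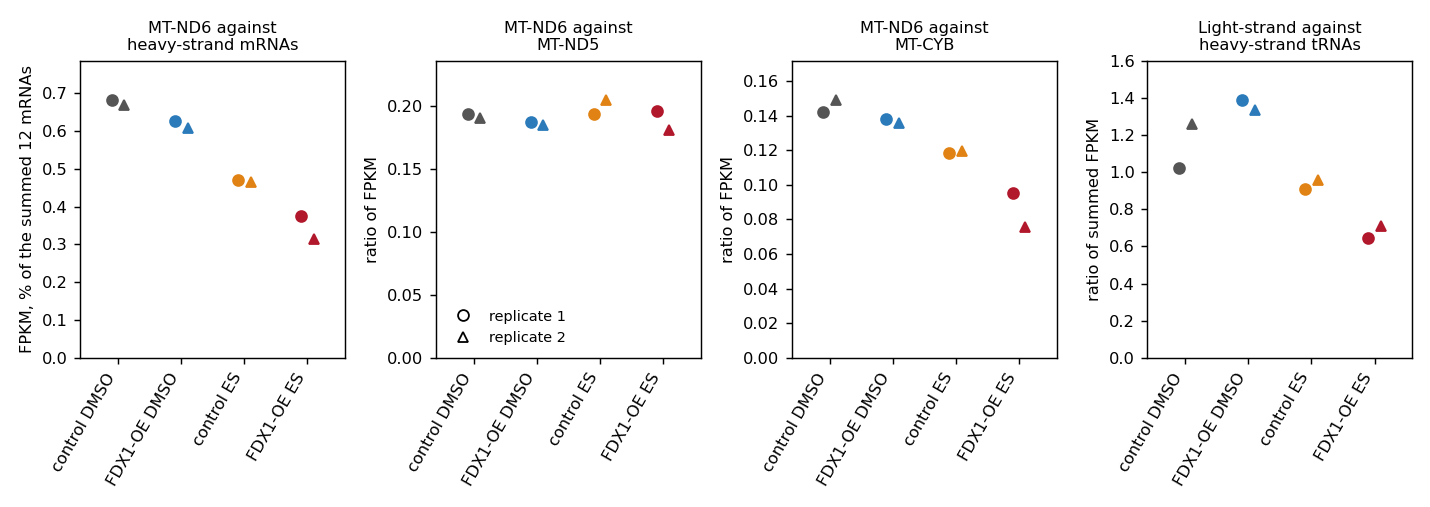
Ratios of light-strand to heavy-strand FPKM in each library, by group: MT-ND6 as a percent of the 12 heavy-strand mRNAs, MT-ND6 against MT-ND5, MT-ND6 against MT-CYB, and the 8 light-strand tRNAs against the 14 heavy-strand tRNAs; circles are replicate 1 and triangles replicate 2. The ratio to MT-ND5 stays between 0.181 and 0.205, while MT-ND6 against all 12 falls from 0.683 at the highest to 0.315.

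Heavy-strand tRNAs split in direction. Of the 14, 8 rose, 5 fell and 1 was not called in FDX1-OE cells, and 4 rose and 1 fell in control cells. MT-TK was at 5.93 and 8.93 FPKM in control DMSO, 8.47 and 8.42 in FDX1-OE DMSO, 53.5 and 67.1 in control ES and 221 and 175 in FDX1-OE ES. It changed most of the 37 (log2 2.88, SE 0.18, adjusted p = 0.000344 in control and log2 4.39, SE 0.18, adjusted p = 2.8e-06 in FDX1-OE cells), with ratios of mean FPKM of 8.12 and 23.4. MT-TR was at 11.2 and 10.1 FPKM in control DMSO, 12.5 and 11.8 in FDX1-OE DMSO, 38.5 and 44.7 in control ES and 143 and 121 in FDX1-OE ES (log2 3.33, SE 0.10, adjusted p = 1.5e-06 in FDX1-OE cells). MT-TM was at 46.2 and 41.2 FPKM in control DMSO, 38.2 and 36.5 in FDX1-OE DMSO, 121 and 136 in control ES and 350.1 and 276 in FDX1-OE ES (log2 3.03, SE 0.11, adjusted p = 2.23e-06 in FDX1-OE cells). For these 3 the groups formed steps without overlap, from both DMSO groups to control ES to FDX1-OE ES, and the ES effect was larger in FDX1-OE cells by 1.51, 1.46 and 1.49. They kept their calls in both cell types under all 17 alternative settings.

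The other heavy-strand tRNAs that rose in FDX1-OE cells were MT-TW for tryptophan (1.97), MT-TG for glycine (1.92), MT-TL2 for leucine (1.90), MT-TI for isoleucine (0.75) and MT-TL1 for leucine (0.57). MT-TW was at 11.1 and 8.42 FPKM in control DMSO, 7.93 and 6.87 in FDX1-OE DMSO, 12.9 and 12.7 in control ES and 29.02 and 34.7 in FDX1-OE ES. It rose in FDX1-OE cells (log2 1.97, SE 0.13, adjusted p = 2.41e-05) and was not called in control cells (log2 0.37, SE 0.13, adjusted p = 0.126). MT-TI was called in both cell types (0.52 in control cells, a call lost with median-ratio scaling, quantile normalisation and equal heavy-strand mRNA sums) with 53.4 to 66.2 FPKM in DMSO and 80.1 to 102 in ES. MT-TL2 was the scarcest, at 1.30 to 3.55 FPKM in DMSO and 8.96 and 9.71 in FDX1-OE ES, and MT-TG rose from 3.56 and 1.57 to 13.1 and 10.9 FPKM in FDX1-OE cells. MT-TL1, which lies between MT-RNR2 and MT-ND1, was at 413 to 482 FPKM in DMSO and 702 and 550.4 in FDX1-OE ES. At the levels of MT-TL2 and MT-TG the added 1 FPKM shrinks the fold change.

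MT-TT for threonine, MT-TH for histidine, MT-TD for aspartate, MT-TF for phenylalanine and MT-TV for valine were the 5 that fell in FDX1-OE cells. MT-TT was at 199 and 208 FPKM in control DMSO, 196 and 209 in FDX1-OE DMSO, 154 and 142 in control ES and 91.0 and 61.9 in FDX1-OE ES. It fell by 1.42 on the log2 scale (adjusted p = 0.000143), and its ES libraries lay below all DMSO libraries. MT-TD fell in both cell types (log2 -0.74, SE 0.11, adjusted p = 0.0141 in control and log2 -0.74, SE 0.11, adjusted p = 0.000823 in FDX1-OE cells), from 41.7 to 52.9 FPKM in the 4 DMSO libraries to 26.2 to 30.3 in the 4 ES libraries. The difference between its 2 effects was 0.00 (SE 0.16). This holds on the main scale: with equal heavy-strand mRNA sums MT-TD was at -0.72 in control (adjusted p = 0.0838) and -0.21 in FDX1-OE cells (adjusted p = 0.164), neither called, and the effects differed by 0.50 (adjusted p = 0.0461). MT-TH was at 10.8 and 8.84 FPKM in FDX1-OE DMSO and 2.62 and 4.64 in FDX1-OE ES (log2 -1.26, SE 0.24, adjusted p = 0.00229). MT-TF was at 562 and 397 FPKM in control DMSO, 350.4 and 334 in FDX1-OE DMSO, 573 and 515 in control ES and 278 and 155 in FDX1-OE ES, and MT-TV at 481 and 397 FPKM in control DMSO, 357 and 341 in FDX1-OE DMSO, 441 and 405 in control ES and 302 and 192 in FDX1-OE ES. For both, FDX1-OE ES held the lowest libraries. MT-TF and MT-TV, at -0.72 and -0.53, lost their calls without FDX1-OE ES replicate 2 and without either library of FDX1-OE DMSO or control ES. They also lost them with equal nuclear totals, quantile normalisation and equal heavy-strand mRNA sums. MT-TS2, for serine, was at 4.63 to 7.31 FPKM over the 8 libraries and was not called in FDX1-OE cells (log2 -0.16, SE 0.10, adjusted p = 0.181), but was called lower with median-ratio scaling (-0.41) and quantile normalisation (-0.50).

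Light-strand tRNAs split as well: 3 of 8 rose and 5 fell in FDX1-OE cells, and 2 rose and 1 fell in control cells. MT-TA was at 10.3 and 8.61 FPKM in control DMSO, 7.64 and 7.73 in FDX1-OE DMSO, 14.5 and 13.6 in control ES and 38.9 and 44.3 in FDX1-OE ES. It rose in FDX1-OE cells (log2 2.29, SE 0.10, adjusted p = 3.7e-06) and in control cells (log2 0.53, SE 0.10, adjusted p = 0.0235; lost with quantile normalisation and equal heavy-strand mRNA sums), and the groups stepped up without overlap between treatments. MT-TN was at 5.38 and 5.39 FPKM in control DMSO, 4.88 and 4.39 in FDX1-OE DMSO, 6.32 and 8.23 in control ES and 20.4 and 23.9 in FDX1-OE ES (log2 2.04, SE 0.13, adjusted p = 1.68e-05 in FDX1-OE cells). MT-TQ, which shares 3 bases with MT-TI on the other strand, was at 59.4 and 49.1 FPKM in control DMSO, 46.1 and 43.9 in FDX1-OE DMSO, 90.3 and 96.6 in control ES and 199 and 159 in FDX1-OE ES (log2 0.78, SE 0.12, adjusted p = 0.0131 in control and log2 1.96, SE 0.12, adjusted p = 1.51e-05 in FDX1-OE cells). In FDX1-OE ES it was 13.6% and 13.2% of the summed light-strand tRNAs, against 2.20% to 3.01% in DMSO.

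The 5 that fell include the most abundant rows of the light strand. MT-TS1 was at 761 and 739 FPKM in control DMSO, 775 and 754 in FDX1-OE DMSO, 627 and 614 in control ES and 440.3 and 312 in FDX1-OE ES and fell in FDX1-OE cells (log2 -1.04, SE 0.13, adjusted p = 0.000332). MT-TY was at 685 and 797 FPKM in control DMSO, 776 and 719 in FDX1-OE DMSO, 732 and 752 in control ES and 443 and 390.0 in FDX1-OE ES. Control ES lay inside the DMSO range and FDX1-OE ES well under it (log2 -0.85, SE 0.09, adjusted p = 0.000151 in FDX1-OE cells). MT-TC, whose gene shares 1 base with that of MT-TY, was at 226 and 264 FPKM in control DMSO, 271 and 255 in FDX1-OE DMSO, 255 and 275 in control ES and 186 and 162 in FDX1-OE ES (log2 -0.59, SE 0.09, adjusted p = 0.00094 in FDX1-OE cells). MT-TE fell in both cell types (-0.67 in control and -0.76 in FDX1-OE cells), and MT-TP for proline fell in FDX1-OE cells (-0.73). With equal heavy-strand mRNA sums MT-TC (-0.05, adjusted p = 0.694) and MT-TP (-0.19, adjusted p = 0.182) were no longer called in FDX1-OE cells, nor was MT-TE in either cell type (-0.64, adjusted p = 0.0966 in control and -0.23, adjusted p = 0.127 in FDX1-OE cells). MT-TE was at 99.8 to 122 FPKM in DMSO, 81.3 and 68.9 in control ES and 60.1 and 58.1 in FDX1-OE ES. MT-TP was at 103 to 123 FPKM in DMSO and 78.6 and 56.7 in FDX1-OE ES, with no overlap. The ratio of the summed light-strand to heavy-strand tRNAs was 1.02 and 1.26 in control DMSO, 1.39 and 1.33 in FDX1-OE DMSO, 0.912 and 0.956 in control ES and 0.644 and 0.708 in FDX1-OE ES. Sums of this kind are carried by a few rows: MT-TY and MT-TS1 together exceeded the other 6 of the light strand in the DMSO libraries.

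**Figure D5:**
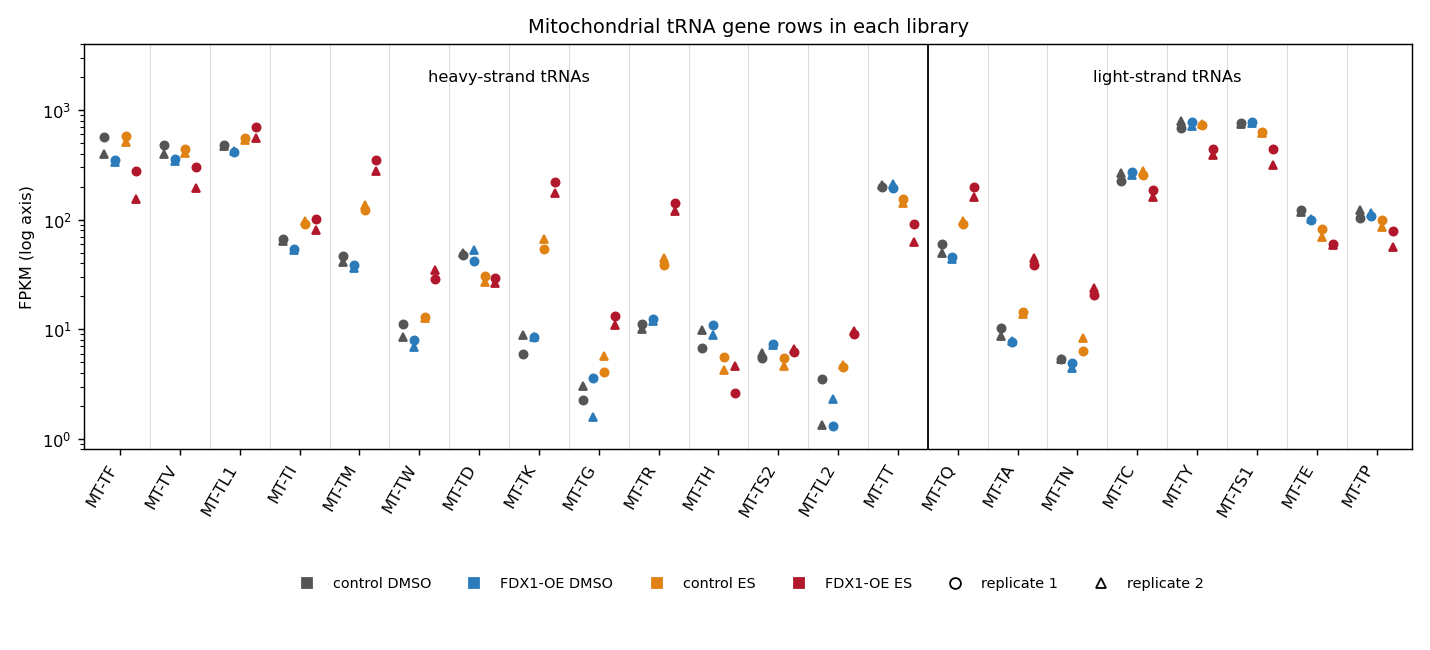
FPKM (log axis) of the 22 tRNA gene rows in each library, heavy-strand tRNAs on the left and light-strand tRNAs on the right; colours are groups and symbols replicates. MT-TK runs from 5.93 FPKM at the lowest to 221 at the highest, whereas MT-TY and MT-TS1 drop in FDX1-OE ES.

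Along the map, tRNAs of both strands moved together in some places and apart in others. The 3 tRNAs between MT-ND1 and MT-ND2 (MT-TI and MT-TM on the heavy strand, MT-TQ on the light strand) rose in both cell types, beside the mRNA MT-ND2, which also rose. Of the 5 between MT-ND2 and MT-CO1, the 3 nearest MT-ND2 (MT-TW, MT-TA and MT-TN) rose in FDX1-OE cells, and the 2 nearest MT-CO1 (MT-TC and MT-TY) fell, as did MT-CO1. A stretch of 31 bases lies between MT-TN and MT-TC, and both are light-strand genes. Farther along, MT-TS1 and MT-TD between MT-CO1 and MT-CO2 fell in FDX1-OE cells, as did both of these mRNAs. MT-TD fell by as much in control cells (-0.74), where neither mRNA was called. With equal heavy-strand mRNA sums MT-TD was not called in FDX1-OE cells (-0.21). MT-TK between MT-CO2 and MT-ATP8, MT-TG between MT-CO3 and MT-ND3, and MT-TR between MT-ND3 and MT-ND4L rose, though no mRNA on either side of them rose in FDX1-OE cells on the main scale. There MT-ND3 and MT-ND4L were called higher with quantile normalisation (0.34 and 0.50) and equal heavy-strand mRNA sums (0.56 and 0.34). With median-ratio scaling they were called lower (-0.28 and -0.50). The 11 tRNAs that rose had a median level of 9.75 FPKM in control DMSO and those that fell one of 224 FPKM, and GC content had a median of 35.3% and 40.0%; these are descriptions of the called tRNAs, without a test.

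Between FDX1-OE and control cells in ES, 10 of the 37 RNAs were higher and 21 lower, beside 41.5% of all genes called, 31.1% higher and 10.4% lower. The excess of lower calls depended on the scaling. The 37 split into 10 higher and 9 lower with quantile normalisation (1723 and 1788 of all genes) and into 14 and 6 with equal heavy-strand mRNA sums (9093 and 64). The excess remained with median-ratio scaling, at 8 and 22 (1818 and 2218), and with equal nuclear totals, at 11 and 18 (4745 and 1009). The median of the 37 was -0.41 against 0.16 over all genes. The 10 were tRNAs: MT-TR (1.64), MT-TK (1.70), MT-TA (1.50), MT-TN (1.49), MT-TM (1.27), MT-TW (1.25), MT-TG (1.15), MT-TQ (0.93), MT-TL2 (0.88) and MT-TS2 (0.30). Of the 13 mRNAs 11 were lower and MT-ND2 (0.21, adjusted p = 0.107) and MT-ATP8 (-0.41, adjusted p = 0.0741) were not called. With equal heavy-strand mRNA sums MT-ND2 was called higher (0.72), and of the 11 only MT-ND5, MT-ND6 and MT-CO3 were still called lower. Both rRNAs were lower, MT-RNR2 by -0.69 and MT-RNR1 by -0.65, calls lost with quantile normalisation and with equal sums, and MT-TF had the largest fall of the 37 (-1.38). The calls of MT-ND5, MT-ND6, MT-TA, MT-TF, MT-TK, MT-TM, MT-TN, MT-TQ, MT-TR, MT-TT, MT-TW and MT-TY held under all 17 alternatives. The same control ES libraries enter this comparison and that of ES with DMSO in control cells. Without control ES replicate 1 the calls of MT-RNR1, MT-RNR2, MT-ND1, MT-ND3, MT-ND4, MT-TV, MT-TG, MT-TL2, MT-TE and MT-TP were lost, and without replicate 2 those of MT-RNR1, MT-ND1, MT-ND3, MT-TS2, MT-TL2 and MT-TP. The calls of MT-RNR1, MT-TS2 and MT-TP were also lost without FDX1-OE ES replicate 2 and without either FDX1-OE DMSO library, that of MT-TL2 without either FDX1-OE ES library, and that of MT-TS2 without either control DMSO library. The calls of MT-TS2 and MT-TL2 were lost with median-ratio scaling and quantile normalisation too.

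The effect of ES itself differed between FDX1-OE and control cells for 19 of 37 RNAs, 7 more positive and 12 more negative in FDX1-OE cells, beside 19.0% of all genes, 13.9% and 5.06%. This split too turned with the scaling, to 8 more positive and 2 more negative with quantile normalisation (686 and 714 of all genes) and to 13 and 2 with equal heavy-strand mRNA sums (6674 and 29). It kept its direction with median-ratio scaling, at 7 and 14 (705 and 1134), and with equal nuclear totals, at 8 and 10 (2429 and 520). The calls of MT-TQ, MT-TM, MT-TW, MT-TA, MT-TN and MT-TR held under all 17 alternatives. The 7 were tRNAs (MT-TQ, MT-TM, MT-TW, MT-TA, MT-TN, MT-TK and MT-TR). The 12 were MT-ND4L, MT-ND5, MT-ND6, MT-CO1, MT-CO2, MT-CO3, MT-ATP6, MT-CYB, MT-TC, MT-TY, MT-TS1 and MT-TT, of which only MT-CO3 and MT-TT were called with equal sums. Without any 1 library outside FDX1-OE ES the calls of MT-ND4L, MT-ND5, MT-ND6, MT-CO3, MT-ATP6, MT-CYB, MT-TS1 and MT-TT were lost. That of MT-CO1 was lost without any of these but control ES replicate 2, and that of MT-TC without FDX1-OE DMSO replicate 1. In control cells, only MT-TK, MT-TM and MT-TR among the 12 calls were held without each single library: without control ES replicate 2 or control DMSO replicate 2 the other 9 were lost, without control DMSO replicate 1 all of those but MT-TQ, without control ES replicate 1 all but MT-ND2 and MT-TE, and without either FDX1-OE DMSO library those of MT-ND3, MT-ND4L, MT-ND5, MT-TI and MT-TA.

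The nuclear genes of the same complexes and of the mitochondrial RNA machinery were counted from lists chosen with earlier results known. Nuclear subunits of complex I had 5 of 37 higher and 17 lower with ES in FDX1-OE cells (median log2 -0.22), complex III 0 of 9 and 3 (-0.21), complex IV 0 of 11 and 6 (-0.24) and complex V 0 of 15 and 11 (-0.33), against a median of 0.25 over all genes. With median-ratio scaling these became 0 and 25, 0 and 8, 0 and 10, and 0 and 15. Among all 12063 genes tested, 47.1% were higher and 13.7% lower on the main scale, and 3069 and 3287 genes with median-ratio scaling. NDUFB8 (-0.92) and NDUFA13 (-0.56) of complex I, UQCRH (-0.41) and UQCRFS1 (-0.42) of complex III, COX6B1 (-0.80) and COX4I1 (-0.78) of complex IV and ATP5MC1 (-1.11) and ATP5F1D (-1.32) of complex V fell. Without FDX1-OE ES replicate 2 complex III had 5 lower and complex IV 10.

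The list for transcription of mitochondrial DNA had 3 of 9 higher and 3 lower in FDX1-OE cells (median 0.08), and 0 and 5 with median-ratio scaling (median -0.20). Beside this list and those that follow, 47.1% of all genes were higher and 13.7% lower, and 3069 and 3287 of 12063 with median-ratio scaling. POLRMT, the mitochondrial RNA polymerase, fell by 0.88, and MRPL12, which binds it, fell by 0.51 on the log2 scale. The list for cutting tRNAs from precursors and finishing their ends had 0 of 5 higher and 4 lower (median -0.32). ELAC2, which cuts at the 3′ end of tRNAs, went down by -0.42 and TRMT10C, a subunit of the mitochondrial RNase P, by -0.51. RNA stability and polyadenylation had 0 of 14 higher and 2 lower (median -0.09), among them SLIRP (-0.89), partner of the mRNA-binding protein LRPPRC, and TBRG4 (-0.41), and 0 and 10 with median-ratio scaling. RNA decay had 4 of 7 higher and 2 lower (median 0.33), including PNPT1 (0.64), the mitochondrial polynucleotide phosphorylase, and the nuclease EXOG (0.86), but 2 higher and 3 lower with median-ratio scaling (median 0.11).

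Modification of tRNAs had 3 of 19 higher and 6 lower (median 0.07), with PUS1 (-0.57) and YRDC (-0.88) lower, and modification of rRNAs 4 of 9 higher and 2 lower (median -0.15), with MRM1 at -0.73 and METTL17 at 0.33. With median-ratio scaling these lists had 0 higher and 9 lower (median -0.21) and 0 and 5 (median -0.41). Replication and upkeep of mitochondrial DNA had 4 of 16 higher and 4 lower (median 0.04; 3 and 7 with median-ratio scaling), with PRIMPOL (0.93) and DNA2 (0.76) higher. In control cells with ES these lists and those of nuclear subunits held 4 calls in all, beside 7.74% of all genes called: YRDC (-0.65), METTL17 (0.31), NDUFC1 (0.44) and ATP5MC1 (-0.32). Leaving out either FDX1-OE ES library gave more, such as 5 higher and 1 lower in complex I.

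Short or non-polyadenylated RNAs of nuclear genes were counted as well. Of 24 such genes with a deposited row, 7 entered the test and 5 of these were higher and 0 lower with ES in FDX1-OE cells (median 0.59; 3 and 1 with median-ratio scaling), beside 47.1% and 13.7% of all genes. RN7SK, a nuclear RNA that restrains transcription elongation, was at 9.35 and 7.97 FPKM in control DMSO, 7.39 and 7.85 in FDX1-OE DMSO, 13.5 and 16.4 in control ES and 28.9 and 34.8 in FDX1-OE ES (log2 1.92 in FDX1-OE cells). The list's sum was 48.7 and 53.9 in control DMSO, 47.6 and 50.6 in FDX1-OE DMSO, 62.7 and 65.0 in control ES and 91.7 and 109 in FDX1-OE ES, lowest first. The part that capture of short or untailed RNA has in the tRNA values was not tested.

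Nuclear copies of mitochondrial genes can share reads with them. The 408 such rows summed to between 1110 and 1472 FPKM per library, and 7 of them reached 1 FPKM in a library. MTATP6P1 held most of the sum, at 913 to 1277 FPKM. MTND2P28 rose with ES in FDX1-OE cells (0.61) as MT-ND2 did, and MTCO1P12 fell (-1.09) as MT-CO1 did. How reads were divided between copies is not given in the sources used here, so levels of the mRNAs with a near-identical copy are uncertain to that extent.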

How the data were processed

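RNA was measured by sequencing in 8 libraries, after extraction with TRIzol and library construction with the VAHTS Universal V6 kit, per the labels' protocols. The deposited tables hold 1 value per gene symbol and library, taken as FPKM made by the authors. No header names the unit, and it was read from the values. Per the submitters' processing notes, the tools were HISAT2, HTSeq and R 3.2.0 and the genome hg19, with no role given for any. The depth, the strand setting and the tool that made the FPKM are not given in the sources used here.

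Values were used as log2(FPKM + 1) without further scaling. A gene entered the test if 2 or more libraries reached 1 FPKM (12063 genes). One model with a mean for each of the 4 groups was fitted to the 8 libraries in limma 3.58.1 (R 4.3.3), with the variance trend option (4 residual and 4.25 prior degrees of freedom). Tests were two-sided, with Benjamini-Hochberg adjustment over all genes tested and a threshold of 0.05. The plan gave a course for counts and one for FPKM, and the second was followed. The script was tested on simulated data. Sums, ratios and shares over the RNAs were given per library, without a test.

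The 37 RNAs and the other lists were chosen with earlier results of these data known. Named were all mRNAs and rRNAs, the tRNAs tested, and up to 2 called genes of smallest p per list. Among the deposited rows, 1059 share a symbol with another row. Positions, lengths and tRNA sequences are from GENCODE release 29 (GRCh38), another build than the one in the notes. Alternatives were pseudocounts of 0.1 and 5, no filter, 4 scalings (equal nuclear totals, median ratio, quantile and equal heavy-strand mRNA sum), array weights, the replicate number as a block, and leaving out each library.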

Additional observations from a re-analysis of the deposited data

Results flagged for a closer look

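Whether ES acted differently in FDX1-OE than in control cells was tested with the interaction term of the limma fit, and 19 of the 37 RNAs passed (adjusted p below 0.05), beside 19.0% of all genes. Values are log2 effects in FDX1-OE cells minus those in control cells, so a positive value marks a more positive effect in FDX1-OE cells. Among heavy-strand mRNAs the differences were -0.59 for MT-ND4L, -0.80 for MT-ND5, -0.71 for MT-CO1, -0.73 for MT-CO2, -0.85 for MT-CO3, -0.50 for MT-ATP6 and -0.44 for MT-CYB. The light-strand mRNA MT-ND6 was at -0.83. Among tRNAs they were positive for MT-TA (1.76), MT-TN (1.67), MT-TW (1.60), MT-TK (1.51), MT-TM (1.49), MT-TR (1.46) and MT-TQ (1.18), and negative for MT-TT (-0.96), MT-TY (-0.85), MT-TS1 (-0.77) and MT-TC (-0.71). With equal heavy-strand mRNA sums MT-CO3 and MT-TT were the only negative differences still called.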

How the results depend on the processing

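With 2 libraries per group each call rests on a spread estimated over all 4 groups, and the depth behind the scarce tRNA values is unknown. Of the calls among the 37 RNAs, those that held under all 17 alternatives were 21 of 31 for ES in FDX1-OE cells, 3 of 12 for ES in control cells, 12 of 31 between the cell types in ES and 6 of 19 for the interaction.

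Genes called numbered 3 without the filter and 4 with array weights for FDX1-OE against control in DMSO (1 to 2 over the libraries left out). In ES they were 9157 with equal heavy-strand mRNA sums and 3026 with weights (2511 to 4903 over the libraries left out), and of the 37 RNAs 15 without the filter, 19 with quantile normalisation and 20 with equal sums. For ES in control cells they were 586 with a pseudocount of 5, 58 without the filter, 231 with quantile normalisation, 33 with equal sums and 2523 with weights (28 to 2242), and of the 37 RNAs 3 without the filter, 5 with equal sums and 23 with weights (3 to 23). For the interaction they were 1339 without the filter, 1400 with quantile normalisation and 6703 with equal sums (539 to 3183), and of the 37 RNAs 7 and 10 for the first pair and 15 with equal sums (10 to 28).

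Among changes called on the main scale or under the alternative, these turned direction with equal heavy-strand mRNA sums, as log2 values; changes called under neither are left out. In ES between the cell types they were MT-ND1 (0.18), MT-ND3 (0.17), MT-ND4 (0.079), MT-ATP6 (0.038), MT-CYB (0.045), MT-TI (0.47), MT-TD (0.45), MT-TE (0.18) and MT-TP (0.053), for ES in FDX1-OE cells MT-ND4 (0.45), MT-ND4L (0.34), MT-ATP8 (0.081) and MT-TV (0.0078), and for the interaction MT-ATP6 (0.018), MT-CYB (0.084) and MT-TD (0.50). With quantile normalisation they were MT-ND1 (0.21), MT-ND4L (0.11) and MT-CYB (0.093) between the cell types in ES, MT-ND4 (0.25) and MT-ND4L (0.50) for ES in FDX1-OE cells, and MT-ND4L (0.14) and MT-CYB (0.14) for the interaction. MT-ND3 was at -0.28 for ES in FDX1-OE cells with median-ratio scaling. The cause of these changes was not tested beyond the construction of the scalings.

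The log2 change of the ratio of MT-ND6 to the heavy-strand mRNA sum with ES in control cells was -0.53, against -0.28 for the tRNAs of the 2 strands and -0.58 from mean log2 values. For FDX1-OE in DMSO it was -0.13, against 0.27 for the tRNAs.

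Replicate numbers did not pair the libraries, since the correlations of deviations lay between -0.05 and 0.08. With the replicate block 1 gene was called in DMSO, 4843 in ES between the cell types, 705 for ES in control cells, 7235 for ES in FDX1-OE cells and 1922 for the interaction, and of the 37 RNAs 0, 30, 11, 32 and 20.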
